A study of Huso dauricus x Acipenser schrenckii with 16 samples.

Results

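The low-density lipoprotein (LDL) receptor family was read out in the ovary of hybrid sturgeon from a deposited table of 41685 genes. Members were the 55 entries whose leading protein description names a low-density lipoprotein receptor (very-low-density receptors, LDL receptor-related proteins and class A domain proteins included), sortilin or the lipolysis-stimulated lipoprotein receptor, plus the entry vldlr. They fall into 21 protein types. The rule itself uses no expression value, but the members were chosen with earlier results of these data known. Of the 55 entries, 49 are described here, and counts over the whole family cover all 55.

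The fish were adult females of the cross of a Huso dauricus mother with an Acipenser schrenckii father, kept under normal breeding conditions at the Hulan Farming Base in Harbin. Poly(A) RNA of the ovary was sequenced in 16 libraries, 8 from a population ranked as high in caviar yield and 8 from a population ranked as low. Each yield group is a single population, so yield and population cannot be told apart, and the labels give neither age nor ovarian stage. Both groups were of the same hybrid cross, and the labels name no other treatment.

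By the series' design each group holds 8 females, but the high-yield libraries came as 4 near-identical pairs, 1 and 5, 2 and 6, 3 and 7, and 4 and 8. Spearman's rho was 0.973 to 0.981 within these pairs and 0.867 to 0.960 between the other 116 pairs of libraries, and the median chi-square of the counts was 1.89 to 2.48 within them, against 9.84 to 137 elsewhere. The pairs differed by more than Poisson sampling noise but by far less than any other libraries, so each pair was summed and counted as 1 sample, which left 4 high-yield samples against 8 low-yield samples. Totals ran from 37362125 to 60873931 counts per library. Levels are in CPM (counts scaled to a common library total) after TMM scaling, a correction for differences in composition between libraries, and all fold changes are log2 ratios of high yield over low yield.

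LDL receptor family proteins are single-pass membrane receptors that bind lipoproteins and other ligands through cysteine-rich class A repeats and carry them into clathrin-coated pits. The sortilin and LSR entries are in the set by their descriptions, and class A repeats are not assumed for them. In egg-laying vertebrates a member of the VLDL receptor type is the vitellogenin receptor of the oocyte, through which yolk precursor made in the liver enters the growing egg, and which chicken oocytes need in order to fill with yolk. Larger relatives such as LRP1 and LRP2 (megalin) clear many ligands in other tissues, LRP5 and LRP6 are Wnt co-receptors, and sortilins sort cargo between Golgi, endosome and lysosome.

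The descriptions were first checked against the functional terms of the same table. For 3 of the 55 entries those terms belonged to another gene. LOC117412101 and LOC117426871, described as LRP2, carry terms of the catalytic core of the mitochondrial ATP synthase, span 4.62 and 7.04 kb of the genome, and lie beside LRP2 entries that span 63.0 and 60.8 kb (LOC117973153 and LOC117426690). The entry gpatch1, described as LRP3, carries terms of nucleic acid binding and mRNA processing and lies beside the LRP3 entry LOC117425004. LOC117412101 and LOC117426871 were also the 2 most counted entries of the list, with means of 852 and 460 CPM over the 12 samples. They remain in all counts of 55 because the rule selects them, but they are not described as receptors, and sums over the family use the other 52 entries. The sortilin entries LOC117403184, LOC117415433 and LOC117419953 carry no membrane term, and the second and the third of them adjoin other sortilin entries, so their identity as sortilin rests on the description alone.

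Among the 52 remaining entries, vldlr and a pair of LRP2-like entries stood far above the rest. The entry vldlr had 276, 373, 298 and 289 CPM in the 4 high-yield samples, against 226 to 364 CPM in the 8 low-yield samples, with a median of 330. The high-yield samples lay inside the low-yield range except for high-yield 2 and 6, which was slightly above it. Means were 309 ± 43.4 CPM in high-yield ovaries (SD, n = 4) and 317 ± 47.8 CPM in low-yield ovaries (SD, n = 8), a log2 fold change of -0.04 with an SE of 0.19.

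The LRP2-like entry LOC131698877 had 325, 344, 285 and 334 CPM in high-yield ovaries, against 246 to 705 CPM in low-yield ovaries, with a median of 485. The high-yield values lay close together in the lower part of the low-yield range, where low-yield 8 was lowest and low-yield 5 highest. LOC117411697, the second LRP2-like entry, had 232, 332, 283 and 265 CPM in high-yield ovaries, against 217 to 556 CPM in low-yield ovaries, with a median of 407. It followed LOC131698877 from sample to sample, with a ratio of the first to the second of 1.01 to 1.399 in high-yield ovaries and 1.13 to 1.56 in low-yield ovaries. Their counts and FPKM imply a length of about 1 kb (926 and 1031 bases), far shorter than a megalin transcript. Each spans 38.2 kb of the genome, a distance that includes introns and so does not give a transcript length. These entries are therefore called LRP2-like here, and no full-length receptor is assumed. A short implied length was not particular to this pair. It was 538 bases for the LRP2 entry LOC117973153 and 660 bases for the LRP4 entry LOC117434572, but 16282 bases for the LRP2 entry LOC117426690. The LRP1 entries LOC117401016 and LOC117966955 had implied lengths of 2949 and 3627 bases. The LRP1B entries LOC117408938 and LOC117426678 had 4653 and 1132 bases. For all of these entries too, no full-length receptor is assumed.

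Together vldlr and the LRP2-like pair took 51.4% to 59.4% of the counts of the 52 entries in high-yield ovaries and 54.0% to 73.1% in low-yield ovaries. The sum over the 52 entries ran from 1459 to 1831 CPM in high-yield ovaries and from 1373 to 2221 CPM in low-yield ovaries, so the groups overlapped. Over all 55 entries, 6 averaged at least 100 CPM, 16 averaged 10 to 100, 27 averaged 1 to 10 and 6 averaged less than 1. In bulk ovary, fewer cells of a type and less RNA per cell cannot be told apart, and this holds for every value below.

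**Figure D1:**
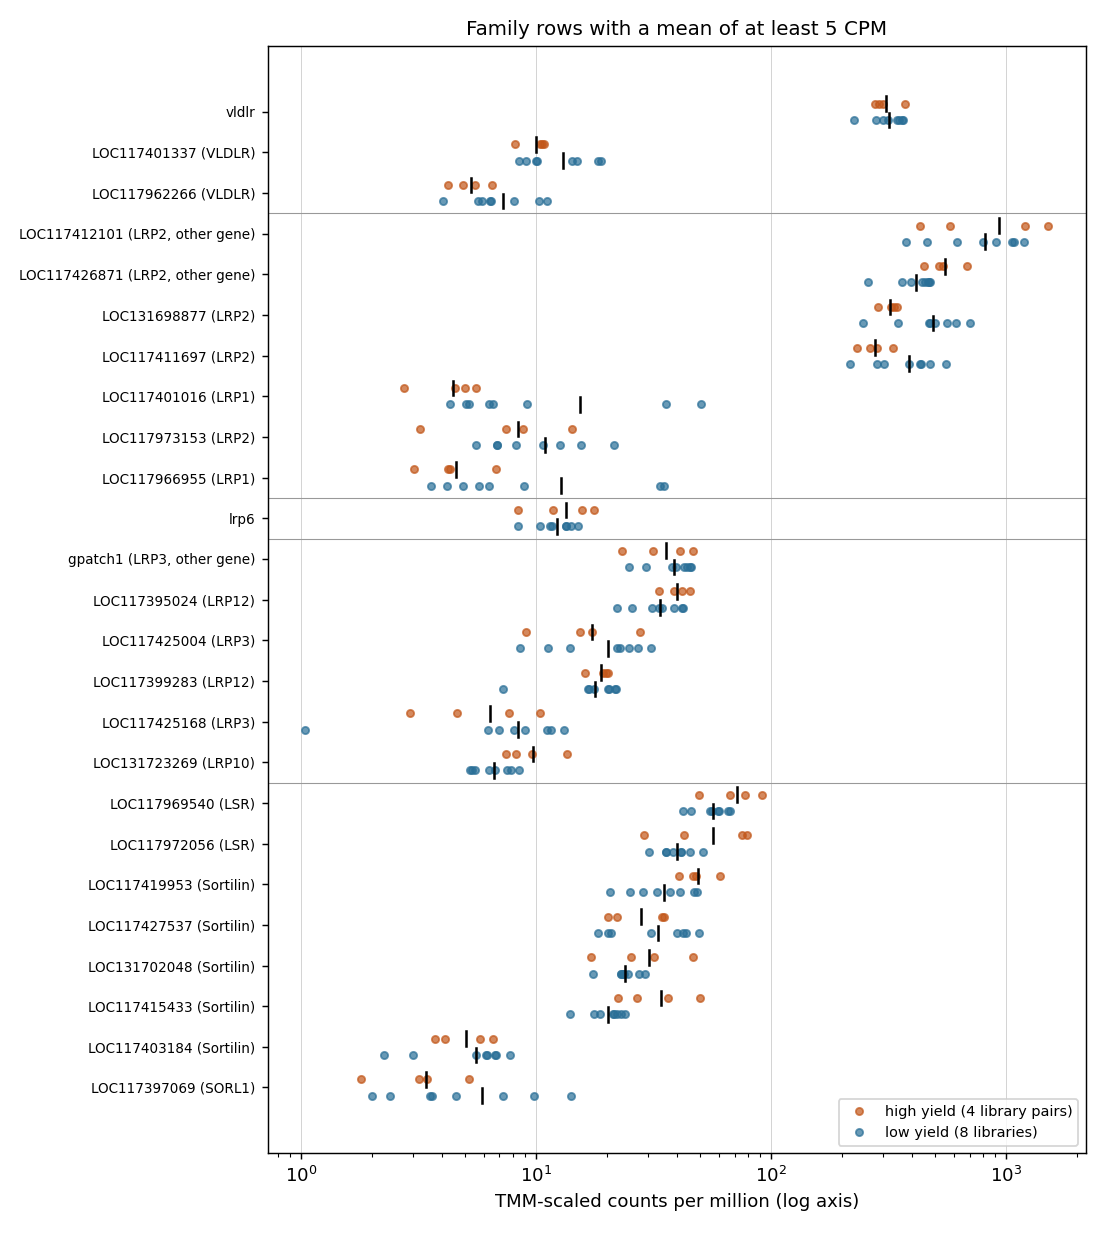
Levels of the entries described here that average at least 5 CPM, in TMM-scaled CPM on a log axis, grouped by role from core lipoprotein receptors at the top to sortilins and LSR at the bottom. Orange points are the 4 high-yield library pairs, blue points below them the 8 low-yield libraries, and black ticks the group means; "other gene" marks the 3 entries whose functional terms belong to another gene. The points of vldlr lie between 226 and 373 CPM, and on this scale the groups overlap for every entry shown.

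The level of vldlr was steady from sample to sample. Its SD on the log2 scale over the 12 samples was 0.21, and only 2.15% of the 1584 genes that average at least 100 CPM had a smaller one. With library size as the only scaling, the share was 2.93%. Low-yield 2, the lowest at 226 CPM, has the largest TMM factor, 1.48 against 0.82 to 1.12 in the other 11 samples. Unscaled for composition it had 333 CPM of vldlr, inside the range of the other libraries. The other VLDLR entries were much lower. LOC117401337 had 8.14, 10.4, 10.8 and 10.6 CPM in high-yield ovaries, against 8.46 to 19.0 CPM in low-yield ovaries, and LOC117962266 had 4.21 to 6.49 CPM in high-yield ovaries, against 4.02 to 11.1 CPM in low-yield ovaries. Both had a median above the high-yield mean in low-yield ovaries, with log2 fold changes of -0.38 (SE 0.27) and -0.46 (SE 0.31). These copies were chosen after their values were seen.

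Between genes, the FPKM of the table could not be read as a level per length for every entry. The ratio of counts to FPKM gives the length that the values imply, and it was below 200 bases for 5 members, against 9.04% of all tested genes and a median of 2888 bases over them. The LSR entries show the effect. LOC117972056, with an implied length of 127 bases, and LOC117969540, with 1782 bases, averaged 45.5 and 61.4 CPM over the 12 samples. Their FPKM stood in the opposite order, at 369 and 35.2. The LDLRAD3 and LRP10 pairs had CPM ratios of 2.36 and 1.67, beside FPKM ratios of 54.9 and 24.5. In the family LOC117972056 had rank 4 by FPKM and rank 9 by CPM. Levels here are therefore compared between samples within an entry, and between entries only as counts.

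**Figure D2:**
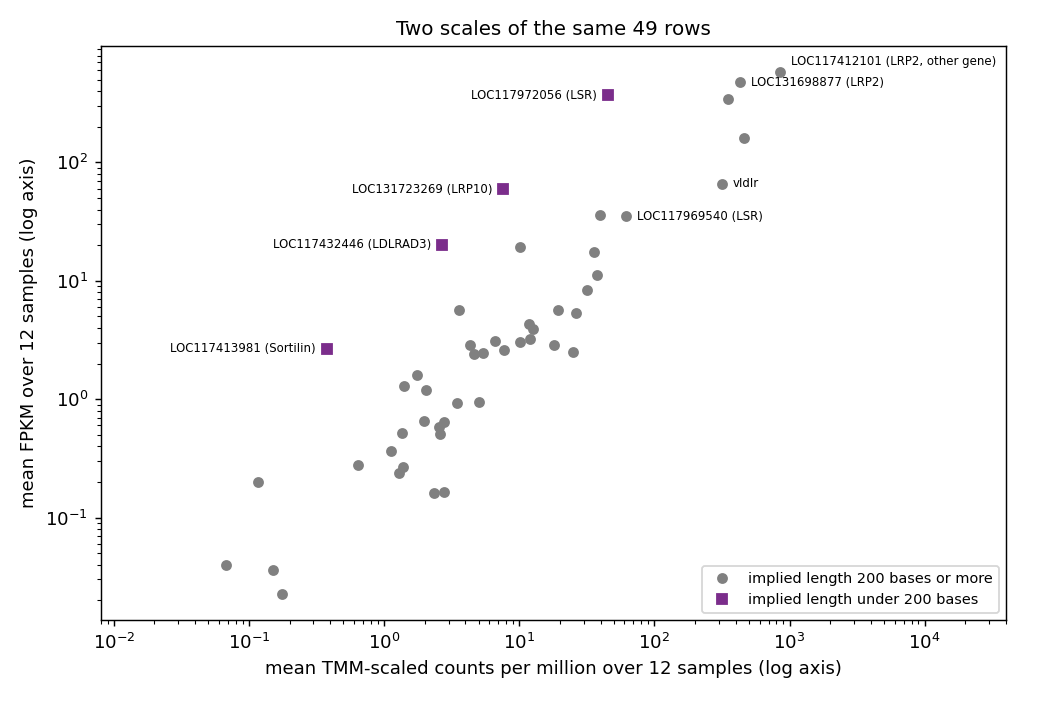
Mean FPKM against mean TMM-scaled CPM over the 12 samples for 49 entries, both on log axes. Purple squares are the 4 of them whose implied length is under 200 bases and grey circles the other entries; the squares lie above the cloud, with LSR LOC117972056 at 369 FPKM and 45.5 CPM and LSR LOC117969540 at 35.2 FPKM and 61.4 CPM.

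The comparison of the populations asked which genes differ with caviar yield. No member passed at an adjusted p of 0.05 (edgeR quasi-likelihood test, Benjamini-Hochberg over 30009 genes), and neither did any other gene, so the background was 0%. The smallest adjusted p was 0.574 among members and also among all genes. At an unadjusted p under 0.05 there were 7 of 53 tested members, 3 higher and 4 lower in high-yield ovaries, which is 13.2%, against 8.52% of all tested genes (5.18% higher, 3.35% lower). DESeq2 on the same samples called 0.365% of 32055 genes and no member. Treating the 16 libraries as independent called 0.0579% of 27653 genes and no member. On the TMM scale no member had groups that did not overlap, against 0.4% of genes higher and 0.233% lower in high-yield ovaries. Under scaling by library size alone, the ATP synthase entry LOC117426871 was the 1 member whose groups did not overlap, at 504 to 565 CPM in high-yield ovaries and 303 to 478 CPM in low-yield ovaries, against 0.22% of genes higher. The LDLRAD1 entry LOC117409056 and ldlrad4a fell below the filter on low counts, with no sample above 0.79 CPM.

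The median log2 fold change was -0.14 over the 53 members and -0.02 over all tested genes, and 21 members were above 0 and 32 below.

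**Figure D3:**
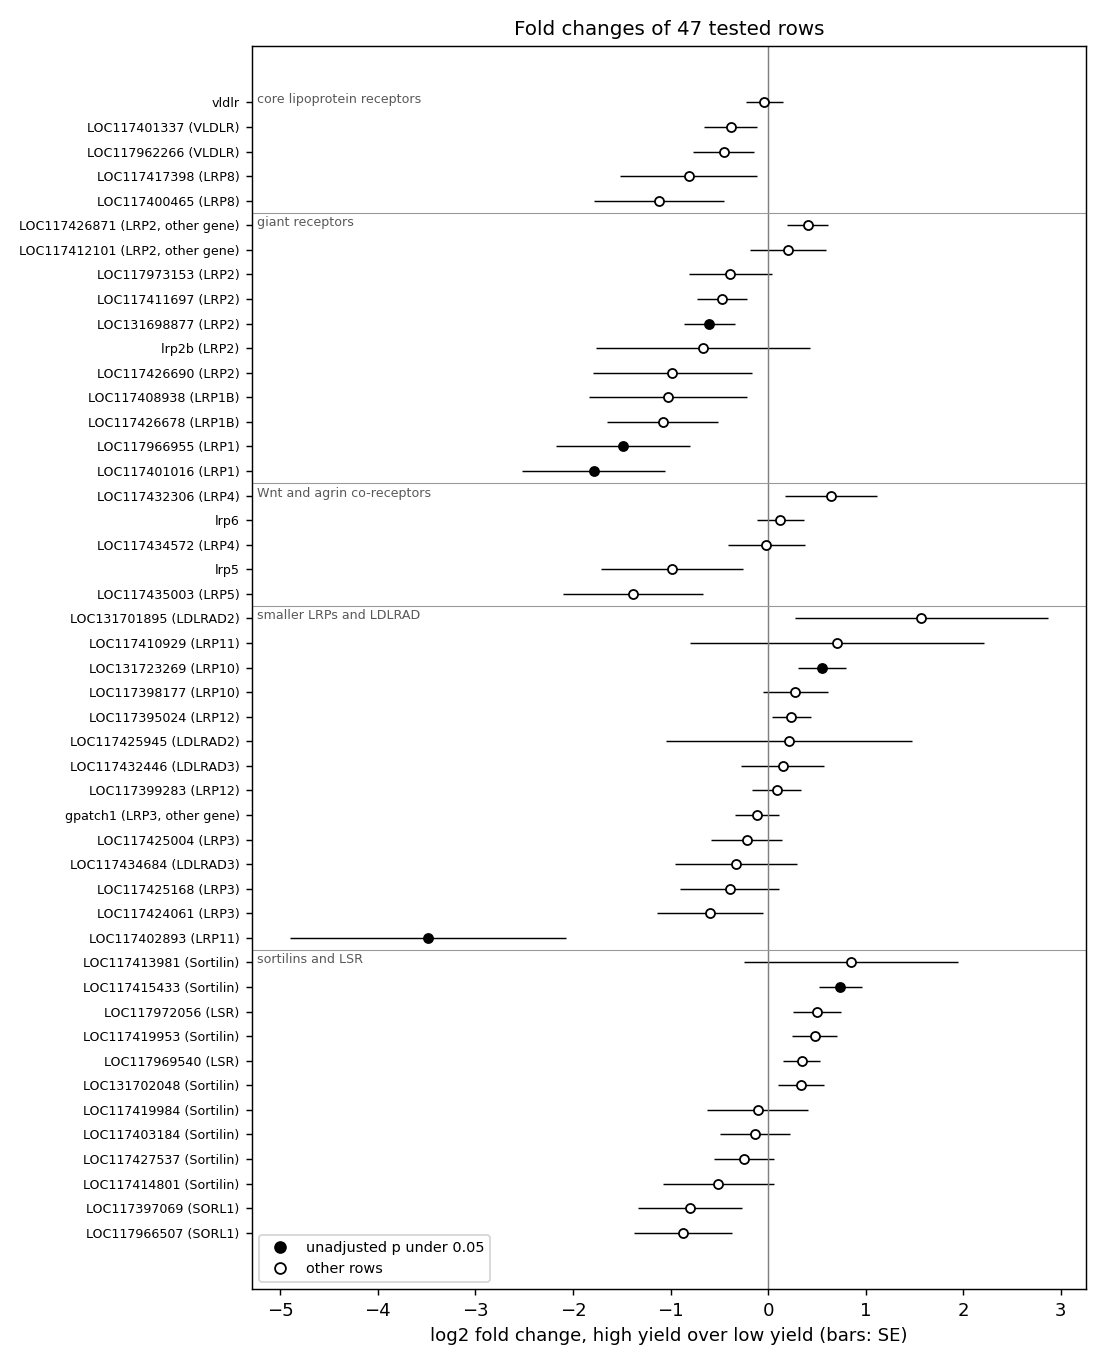
Log2 fold changes of 47 tested entries, high yield over low yield, with the SE as bars, grouped by role. Filled points are the 6 of them at an unadjusted p under 0.05; the 5 core lipoprotein receptors shown lie below 0, between -1.12 and -0.04, and the 9 giant receptors other than the ATP synthase entries between -1.79 and -0.39.

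The core lipoprotein receptors described here are the VLDLR and LRP8 entries. Of these 5 entries, none had an unadjusted p under 0.05, beside 8.52% of all tested genes. Their fold changes ran from -1.12 to -0.04 with a median of -0.46. LRP8 (ApoER2), known in the brain as a reelin receptor together with VLDLR, was near the limit of use. Its entry LOC117400465 had 0.70, 0.80, 0.37 and 1.27 CPM in high-yield ovaries, against 0.38 to 4.76 CPM in low-yield ovaries, which gave a log2 fold change of -1.12 with an SE of 0.67. It was -0.68 without low-yield 2, and -0.04 with voom on 16 libraries and the pair as a random effect. Low-yield 2 held the highest value of both LRP8 entries, 4.76 and 6.18 CPM.

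The giant receptors LRP1, LRP1B and LRP2 had 9 entries besides the ATP synthase entries, and 3 of these were lower in high-yield ovaries at an unadjusted p under 0.05, beside 3.35% of all tested genes. They were both LRP1 entries and the LRP2-like entry LOC131698877, and no full-length receptor is assumed for any of them. Receptor roles were assigned after the table was seen. LRP1 is the endocytic receptor for alpha-2-macroglobulin, apolipoprotein E and protease complexes. Its entry LOC117401016 had 5.003, 4.54, 2.76 and 5.54 CPM in high-yield ovaries, against 4.32 to 50.5 CPM in low-yield ovaries, with a median of 6.45. The top of that range was set by low-yield 5 at 50.5 CPM and low-yield 2 at 35.8 CPM, and the other 6 low-yield libraries lay at 4.32 to 9.21 CPM. Its log2 fold change was -1.79 (SE 0.73, unadjusted p = 0.0285 and adjusted p = 0.576 by edgeR), and -0.46 (unadjusted p = 0.166 by edgeR) without low-yield 2 and 5. Omitting low-yield 5 alone gave -1.22, omitting low-yield 2 alone gave -1.52, and DESeq2 on all samples gave -1.17.

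The second LRP1 entry, LOC117966955, had 4.24, 3.02, 4.31 and 6.74 CPM in high-yield ovaries, against 3.57 to 34.96 CPM in low-yield ovaries, with low-yield 5 at 34.96 and low-yield 2 at 33.8. Its log2 fold change was -1.48 (SE 0.69, unadjusted p = 0.0484 by edgeR), -0.91 with the replicate number as a block, and -0.29 without low-yield 2 and 5. Across samples the ratio of the LRP1 entries stayed between 0.64 and 1.505 in high-yield ovaries and 0.68 and 1.85 in low-yield ovaries, while their levels in low-yield ovaries spanned about an order of magnitude. Whether the counting split reads between these copies was not tested.

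The same pair of low-yield samples carried the most RNA of fibroblast, matrix and leukocyte markers. Summed over 25 fibroblast and matrix entries, all of them detected, the high-yield samples had 60.7 to 160 CPM, against 813 CPM in low-yield 2, 1592 CPM in low-yield 5 and 62.2 to 161 CPM across the rest of that group. Summed over 24 leukocyte entries, high yield had 8.36 to 20.3 CPM, against 111 CPM in low-yield 2, 115 CPM in low-yield 5 and 5.70 to 24.5 CPM in the others. The part of these cells in the LRP1 values was not tested. Across the family, low-yield 2 and 5 were the highest pair of the low-yield group for 6 members, or 11.3% of those tested, against 19.5% of all tested genes.

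LRP2 (megalin), a scavenger receptor of absorptive epithelia, was represented by the abundant LRP2-like pair described above and by low entries. For LOC131698877, means were 322 ± 25.6 CPM in high-yield ovaries (SD, n = 4) and 489 ± 145 CPM in low-yield ovaries (SD, n = 8). Its log2 fold change was -0.60 (SE 0.27, unadjusted p = 0.0393 and adjusted p = 0.580 by edgeR), and it lay between -0.72 and -0.50 in each of the 25 alternatives. For LOC117411697 the means were 278 ± 41.6 and 385 ± 112 CPM in high and low yield, with a log2 fold change of -0.47. The LRP2 entries LOC117973153, LOC117426690 and lrp2b summed to 4.34 to 18.9 CPM in high-yield ovaries, against 8.49 to 31.6 CPM in low-yield ovaries. LRP1B, a relative of LRP1, was low throughout. Its entry LOC117426678 had 0.35, 1.08, 2.05 and 0.51 CPM in high-yield ovaries, against 1.09 to 2.95 CPM in low-yield ovaries. The log2 fold change was -1.08 with an SE of 0.57, then -1.69 without high-yield 3 and 7 and -0.79 without high-yield 1 and 5.

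Leaving aside the ATP synthase entries, the core and giant receptors described here comprised 14 entries, and the fold change of each was below 0, where 51.4% of all tested genes were. This grouping was made after the values were seen, and copies of a receptor share their samples, so it is a count and not a test. Without low-yield 2 and 5 all 14 were still below 0, beside 47.8% of all genes. In the other alternatives every entry that could be fitted was below 0, except vldlr without high-yield 1 and 5, at 0.02.

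Wnt and agrin co-receptors showed no entry of 5 at an unadjusted p under 0.05, a level that 8.52% of all tested genes met. The entry lrp6, a co-receptor needed for canonical Wnt signalling, had 17.6, 15.7, 8.38 and 11.9 CPM in high-yield ovaries, against 8.40 to 15.1 CPM in low-yield ovaries, which gave a log2 fold change of 0.13 with an SE of 0.24. LRP4, the agrin receptor of muscle, had 3.53 ± 1.03 CPM in high-yield ovaries (SD, n = 4) and 3.57 ± 1.76 CPM in low-yield ovaries (SD, n = 8) for LOC117434572. The other LRP4 entry, LOC117432306, had 1.69 ± 0.92 and 1.08 ± 0.20 CPM, a log2 fold change of 0.64 with an SE of 0.47. LRP5, the other Wnt co-receptor, followed the LRP1 pattern. LOC117435003 had 1.06, 0.95, 1.03 and 2.30 CPM in high-yield ovaries, against 1.14 to 10.7 CPM in low-yield ovaries, with low-yield 5 at 10.7, low-yield 2 at 7.23 and a median of 1.49. Its log2 fold change was -1.38 with an SE of 0.72, then -0.88 without low-yield 5 and -0.31 without low-yield 2 and 5.

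Of the smaller receptors of the family (LRP3, LRP10, LRP11, LRP12 and the class A domain proteins), 14 of 16 entries were tested. At an unadjusted p under 0.05, 1 was higher and 1 lower in high-yield ovaries, beside 5.18% and 3.35% of all tested genes. LRP11 is a little-studied transmembrane relative. LOC117402893 had 0.11, 0, 0.46 and 1.66 CPM in high-yield ovaries. In low yield it had 12.7, 11.8, 9.87 and 11.2 CPM in libraries 1, 3, 4 and 8, but 3.02 CPM in library 2 and 0.32 to 0.43 CPM in libraries 5, 6 and 7. All high-yield samples were thus low, and the low-yield libraries divided into 4 at 9.87 CPM or more and 4 at 3.02 CPM or less, so the groups overlapped. The log2 fold change was -3.49 (SE 1.41, unadjusted p = 0.0271 and adjusted p = 0.576 by edgeR), and -5.05 without high-yield 4 and 8. It was -1.52 in limma on log2(FPKM + 1), a scale that understates changes of low genes. The second LRP11 entry, LOC117410929, did not share the pattern, with 0.87, 2.48, 0 and 0.09 CPM in high-yield ovaries, against 0 to 3.08 CPM in low-yield ovaries.

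LRP10, a receptor of the trans-Golgi network and endosome, had 13.5, 9.62, 7.44 and 8.25 CPM in high-yield ovaries for LOC131723269, against 5.24 to 8.44 CPM in low-yield ovaries, with a median of 6.504. High-yield 1 and 5 stood highest. The log2 fold change was 0.55 (SE 0.25, unadjusted p = 0.0428 by edgeR), and 0.36 without high-yield 1 and 5. The other LRP10 entry, LOC117398177, had 5.20 ± 1.81 CPM in high-yield ovaries (SD, n = 4) and 4.29 ± 1.27 CPM in low-yield ovaries (SD, n = 8). LRP12 LOC117395024 had 39.7 ± 5.03 CPM in high-yield ovaries and 33.7 ± 7.22 CPM in low-yield ovaries, and LDLRAD3 LOC117432446 had 2.85 ± 0.86 and 2.57 ± 1.35 CPM. The LRP3 entries other than gpatch1 had log2 fold changes of -0.22 to -0.60. The entry gpatch1 itself had 35.7 ± 10.4 CPM in high-yield ovaries and 38.6 ± 7.63 CPM in low-yield ovaries, and LOC117412101 had 934 ± 514 CPM in high-yield ovaries and 812 ± 303 CPM in low-yield ovaries.

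**Figure D4:**
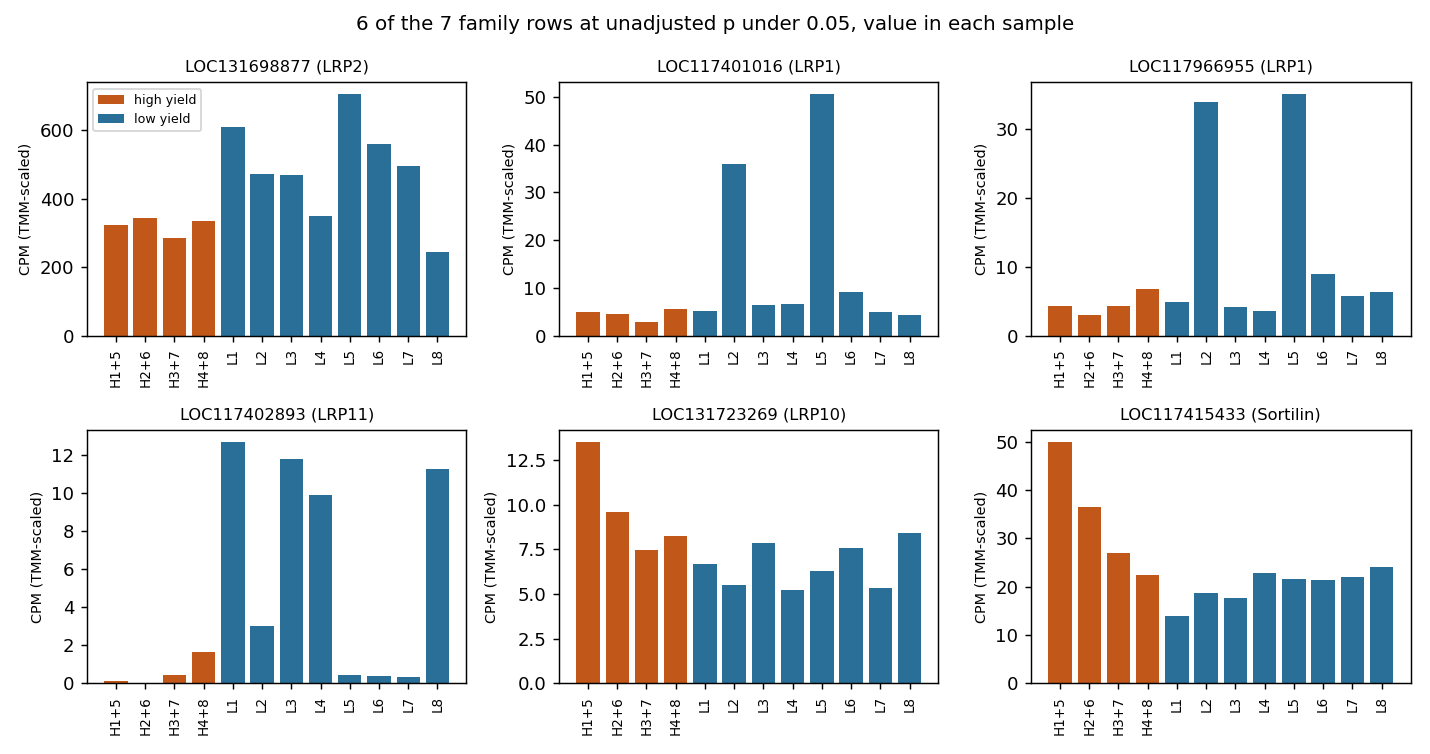
TMM-scaled CPM in each sample for 6 of the 7 entries at an unadjusted p under 0.05, with the 4 high-yield pairs (H, orange) left of the 8 low-yield libraries (L, blue). The LRP1 panels are led by low-yield 2 and 5, the LRP11 panel by low-yield 1, 3, 4 and 8, and the LRP10 and sortilin panels by high-yield 1 and 5 and high-yield 2 and 6.

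Sortilins and LSR, a receptor for triglyceride-rich lipoprotein that also organises tricellular junctions, made up 12 entries. Of these, 1 was higher in high-yield ovaries at an unadjusted p under 0.05, beside 5.18% of all tested genes. The sortilin entry LOC117415433 had 49.9, 36.5, 26.9 and 22.3 CPM in high-yield ovaries, against 14.0 to 24.0 CPM in low-yield ovaries, with a median of 21.4. On the TMM scale only high-yield 4 and 8 overlapped the low-yield range. The log2 fold change was 0.74 (SE 0.22, unadjusted p = 0.00493 and adjusted p = 0.574 by edgeR), and 0.50 without high-yield 1 and 5. With library size as the only scaling, high-yield 3 and 7 (22.1 CPM) and high-yield 4 and 8 (22.6 CPM) both lay below low-yield 2 (27.6 CPM). The unadjusted p of this entry was then 0.0190 by edgeR. The sortilin entry LOC117419953 had 48.9 ± 8.26 CPM in high-yield ovaries (SD, n = 4) and 35.2 ± 10.1 CPM in low-yield ovaries (SD, n = 8), a log2 fold change of 0.48, or 0.32 without low-yield 2 and 5. Over the 8 sortilin entries, 4 fold changes were above 0 and 4 below, from -0.51 to 0.85, with a median of 0.11. LSR LOC117972056 had 75.7, 78.8, 28.8 and 42.7 CPM in high-yield ovaries, against 30.2 to 51.5 CPM in low-yield ovaries, which gave a log2 fold change of 0.50 with an SE of 0.25, or 0.30 without high-yield 2 and 6. SORL1, a sortilin-type receptor that binds amyloid precursor protein, had 2.25 ± 0.81 and 3.40 ± 1.38 CPM in high-yield ovaries for its 2 entries, and 4.11 ± 2.40 and 5.92 ± 4.22 CPM in low-yield ovaries.

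Genes that act with the receptors were read from lists of ligands, chaperones, coat and sorting proteins. No gene of any list passed at an adjusted p of 0.05 in edgeR or in DESeq2. At an unadjusted p under 0.05, the level for every list count below, 5.18% of all tested genes were higher and 3.35% lower in high-yield ovaries. Among 40 lipoprotein ligand entries, 21 were tested and 3 were lower and none higher, with a median log2 fold change of -1.03. Vitellogenin, the main yolk ligand, is made in the liver, and its tested ovary entries LOC117405248 and LOC117416999 did not exceed 3.35 CPM in any sample. Apolipoprotein E, the ligand shared by most of the family, had 3.35, 4.00, 4.78 and 3.84 CPM in high-yield ovaries for LOC131727996, against 2.42 to 49.1 CPM in low-yield ovaries, where low-yield 2 was highest. The log2 fold change was -2.05 (SE 0.69, unadjusted p = 0.0105 by edgeR), and -1.40 without low-yield 2 and 5. The median of the ligand list was -0.54 without them. Apolipoprotein M LOC117971191, the entry of the list with the highest FPKM, ranged from 0.53 to 94.4 CPM in high-yield ovaries and from 1.86 to 142 CPM in low-yield ovaries, so that no direction could be read. Lipoprotein lipase, which the family binds and clears, had 50.3 ± 29.7 CPM in high-yield ovaries (SD, n = 4) and 50.6 ± 27.8 CPM in low-yield ovaries (SD, n = 8) for LOC117401443, chosen after its values were seen.

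Of the other ligands, 30 of 32 entries were tested and 2 were higher and none lower at an unadjusted p under 0.05, with a median of -0.28, and of -0.06 without low-yield 2 and 5, over 26 entries. The sclerostin domain-containing protein LOC117435660, from a family of secreted Wnt and BMP antagonists of which sclerostin binds LRP5 and LRP6, had 15.1, 12.3, 5.07 and 7.07 CPM in high-yield ovaries, against 2.09 to 7.87 CPM in low-yield ovaries. This gave a log2 fold change of 1.31 (SE 0.39, unadjusted p = 0.00494 by edgeR). Tissue plasminogen activator LOC131706796, cleared by LRP1, had 5.19 ± 1.25 CPM in high-yield ovaries and 8.34 ± 5.61 CPM in low-yield ovaries.

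Chaperones and turnover genes gave none of 6 tested entries, of 7, at an unadjusted p under 0.05, with a median of -0.10, and of 0.13 without low-yield 2 and 5. The receptor-associated protein RAP, which escorts family members through the endoplasmic reticulum, had 57.3, 60.4, 31.2 and 26.2 CPM in high-yield ovaries for lrpap1, against 26.4 to 35.7 CPM in low-yield ovaries, which gave a log2 fold change of 0.43 with an SE of 0.22. Furin LOC117429744, the protease that matures LRP1, had 152 ± 45.0 CPM in high-yield ovaries and 152 ± 70.5 CPM in low-yield ovaries.

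Endocytic adaptor and coat genes gave 1 higher and 3 lower of 50 tested, of 52, with a median of -0.10. The AP-2 sigma subunit ap2s1 had 47.1, 56.2, 33.4 and 28.1 CPM in high-yield ovaries, against 20.6 to 34.1 CPM in low-yield ovaries (log2 fold change 0.57, SE 0.22). The huntingtin-interacting protein 1 entry LOC117430640, a clathrin-binding protein, had 11.1 ± 2.95 CPM in high-yield ovaries and 18.6 ± 7.81 CPM in low-yield ovaries, which gave a log2 fold change of -0.74, or -0.45 without low-yield 2 and 5.

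Endosomal sorting genes gave 6 higher and 1 lower of 51 tested, of 58, beside 5.18% and 3.35% of all tested genes, with a median of 0.05. Rab11a LOC117395614, which returns receptors from the recycling endosome to the surface, had 95.1, 122, 75.4 and 84.2 CPM in high-yield ovaries, against 49.8 to 74.0 CPM in low-yield ovaries. On the TMM scale every high-yield sample was above every low-yield library, as held for 0.4% of tested genes. The margin was small, and its lowest high-yield sample, high-yield 3 and 7, has the smallest TMM factor, 0.82. Under scaling by library size alone the groups overlapped. There high-yield 3 and 7 falls, and low-yield 2, with the largest TMM factor at 1.48, rises above it. The entry was named for having the smallest p of its list. The log2 fold change was 0.61 (SE 0.18, unadjusted p = 0.00443 by edgeR). Rab11b LOC131721862 had 59.2 ± 14.97 CPM in high-yield ovaries and 45.8 ± 7.79 CPM in low-yield ovaries.

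Other yolk and lipid receptors gave 2 higher and 1 lower of 14 tested, of 15, with a median of -0.45, or 0.37 without low-yield 2 and 5, and genes of sterol control gave 1 higher and none lower of 19 tested, of 21, with a median of -0.08. Lysosome membrane protein 2 (LIMP-2, a scavenger receptor of the CD36 family) had 42.6 ± 21.5 CPM in high-yield ovaries and 23.9 ± 8.60 CPM in low-yield ovaries for LOC117400834. The LIMP-2 entry LOC131724824 had 15.9 ± 5.63 CPM in high-yield ovaries and 21.5 ± 21.3 CPM in low-yield ovaries, which gave a log2 fold change of -0.44, or 0.59 without low-yield 2 and 5. HMG-CoA synthase LOC117404083, an enzyme of cholesterol synthesis, had 11.7, 12.8, 4.15 and 7.34 CPM in high-yield ovaries, against 3.35 to 7.65 CPM in low-yield ovaries (log2 fold change 1.01, SE 0.33, unadjusted p = 0.00808 by edgeR). For this entry high-yield 3 and 7 and high-yield 4 and 8 lay inside the low-yield range. Site-1 protease LOC117424734, which activates sterol-sensing transcription factors, had 51.5 ± 5.26 CPM in high-yield ovaries and 54.9 ± 9.09 CPM in low-yield ovaries.

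The ovary label was checked with marker lists. Oocyte markers were abundant in all samples, at 2441 to 3341 CPM summed over 12 entries in high-yield ovaries, against 1101 CPM in low-yield 2 and 2101 to 2717 CPM across the rest of that group. The median log2 fold change was 0.29 for oocyte markers. It was -2.01 for granulosa, -0.72 for theca, -1.73 for fibroblast and matrix, -2.13 for endothelium, -1.997 for smooth muscle, -1.95 for leukocyte, -0.65 for erythrocyte and -1.01 for liver markers. For liver only 4 of 8 entries were tested. Their list summed to 8.84 to 233 CPM in high-yield ovaries, against 19.9 to 243 CPM in low-yield ovaries, so no direction could be read. Smooth muscle markers summed to 209 to 388 CPM in high-yield ovaries, against 2680 CPM in low-yield 5 and 193 to 428 CPM across the rest of that group. Without low-yield 2 and 5 fewer entries passed the filter on low counts: 8 of 9 for granulosa, 13 of 14 for endothelium, 16 of 17 for smooth muscle, 11 of 14 for leukocyte and 7 of 10 for erythrocyte markers. Over these same entries the medians with all samples were -1.83, -2.09, -1.74, -2.32 and -0.40 in that order. Without low-yield 2 and 5 the medians were -0.12 for granulosa, -0.05 for theca, 0.01 for fibroblast and matrix, 0.19 for endothelium, 0.28 for smooth muscle, 0.13 for leukocyte, 0.33 for erythrocyte, -1.28 for liver and 0.11 for oocyte markers. The lists of cells other than oocytes and liver thus had medians within 0.33 of 0 over the entries that could still be fitted. The part of these cells in the values of the receptors was not tested.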

How the data were processed

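The authors deposited 1 table with, per the file headers, a count and an FPKM value for each gene in each of 16 libraries. Per the labels' protocols, poly(A) RNA was used and the second strand digested; adapters were trimmed with cutadapt 1.9 per the submitters' processing notes. Aligner, counter and genome build: not given in the sources used here; no coordinates or sequences are printed. Within a gene with many counts, deposited counts and FPKM kept a nearly constant ratio, which does not show how the counts were made.

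Counts of the 4 near-identical high-yield pairs were summed (4 against 8) and tested over the whole table with edgeR 4.0.16 (R 4.3.3; filterByExpr, TMM, quasi-likelihood F test, two-sided, Benjamini-Hochberg, threshold 0.05). The SE is that implied by the F statistic. Fits were tested on simulated counts modelled on the low-yield libraries, with 200 changed genes and 4 against 8 samples. There edgeR called 7% of 2-fold and 61% of 4-fold changes, with 3 false calls. DESeq2 called 18% and 83%, with 32 false calls. The absence of a call therefore does not show that a gene was unchanged. DESeq2 1.42.0, limma 3.58.1 on log2(FPKM + 1) and log2(FPKM + 0.1), other scalings and filters, and left-out samples were alternatives. Reads shared by near-identical copies cannot be assigned with certainty.

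The members, gene lists and marker lists were chosen with earlier results of these data known. Terms matching other proteins were removed from the lists, and receptor roles assigned, after the table was seen. Members named are vldlr, the entry of each type with the highest mean FPKM (at least 1), and the 5 members with the smallest p in each direction; pathway genes named are the entry with the highest FPKM and that with the smallest p in each list. Others named were chosen after their values were seen, among them the second copies of receptors. Highest FPKM favours entries with a short implied length. Some members are not reported here.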

Additional observations from a re-analysis of the deposited data

Results flagged for a closer look

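The high-yield and the low-yield values of 47 tested members made 94 groups, and 9 values stood far from the others of their group by Dixon's ratio (the gap to the nearest value over the range) at its 95% critical value. Chance flags about 1 in 20 groups if values are normally distributed and groups independent. Here the groups share the same 12 samples and many values are low CPM, so 9 of 94 cannot be set against that rate. High-yield 4 and 8 had 2.30 CPM of the LRP5 entry LOC117435003, the highest of high yield, with a ratio of 0.915. Low-yield 2 was the highest of low yield for 4 entries. These were the LRP8 entries LOC117417398, at 6.18 CPM with a ratio of 0.903, and LOC117400465, at 4.76 CPM with a ratio of 0.611, the LRP11 entry LOC117410929, at 3.08 CPM with a ratio of 0.827, and the LDLRAD3 entry LOC117432446, at 5.77 CPM with a ratio of 0.699. Low-yield 6 had 7.77 CPM of the LRP4 entry LOC117434572, the highest of low yield, with a ratio of 0.754. Low-yield 5 was the highest of low yield for lrp5, at 11.5 CPM with a ratio of 0.643, and the lowest for the LRP12 entry LOC117399283, at 7.25 CPM with a ratio of 0.638. Low-yield 1 had 0.52 CPM of the sortilin entry LOC117419984, the lowest of low yield, with a ratio of 0.566.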

How the results depend on the processing

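No member was called in any of 25 alternatives, and the smallest adjusted p of a member over them was 0.0935. Over all genes, higher and lower calls numbered 40 and 77 in DESeq2, 2 and 14 with 16 independent libraries, and none in edgeR on pair sums. Members at an unadjusted p under 0.05, 7 in the main comparison, numbered 15 with 16 independent libraries and 3 without low-yield 2 and 5. They numbered 4 in limma on log2(FPKM + 1) with or without a filter, and 3 in limma on log2(FPKM + 0.1). As each sample was left out they numbered 2 to 9, with the lowest without high-yield 1 and 5, and the cause was not tested. The counts over all genes moved as well. They were 2557 of 30009 in the main comparison, 5484 of 27653 with 16 independent libraries and 3630 without low-yield 2 and 5. Without low-yield 2 and 5, members thus fell from 7 to 3 while all genes rose from 2557 to 3630. The higher share of members in the main comparison is therefore not a stable result. In limma the counts over all genes were 1466 on log2(FPKM + 1), 2218 with no filter and 1464 on log2(FPKM + 0.1). As each sample was left out they were 1313 to 3431, again lowest without high-yield 1 and 5. Numbers shared by high-yield and low-yield libraries did not pair them: deviations of same-numbered libraries correlated at -0.18 to 0.40, and 3 of 8 matched best with their own number. With the replicate number as a block (8 against 8) 12 members had an unadjusted p under 0.05, beside 4627 of all genes, and none was called. In that fit the log2 fold change of LOC117434572 (-0.017) was 0.018. Of the fold changes of named members under the alternatives, 508 kept direction and side of the threshold and 15 reversed: LOC117412101 (0.20) was -0.12 without high-yield 3 and 7 and -0.018 without low-yield 2 and 5; vldlr was 0.019 and lrp6 -0.027 without high-yield 1 and 5; gpatch1 was 0.054 without high-yield 3 and 7; and LOC117434572 was 0.065 with high-yield 5 to 8 alone, 0.013 without a filter, 0.0064 and 0.015 in limma with a pseudocount of 1 (also with no filter) and 0.1, 0.039 without high-yield 2 and 6, 0.13 without high-yield 3 and 7, and between -0.078 and 0.25 as each low-yield library was left out. No named member crossed the threshold in any fit, so the 508 count direction alone and say nothing of size. Among them, LOC117401016 went from -1.79 to -0.46 without low-yield 2 and 5. LOC117400465 went from -1.12 to -0.04 with voom and the pair as a random effect. Depth limits the entries below about 1 CPM, where a few counts decide a value.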
